A study of Mus musculus with 9 samples.

Results

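The genes described here are 10 pigment genes of the mouse eye. They encode the melanin enzymes, a transcription factor, receptors, transporters and a small melanosomal membrane protein. They were taken as the rows whose gene symbol is Tyr, Tyrp1, Dct, Mitf, Mc1r, Gpr143, Slc45a2, Oca2, Slc24a5 or Mlana, and all 10 were found among the 13089 genes listed in each library's table. Whole-eye poly(A) RNA was sequenced from female wild type mice of 4 weeks in 3 strains, with 3 libraries of A/J, 3 of BALB/c and 3 of C57BL/6J, and every library was made from RNA pooled from 5 mice. The albino strains are A/J and BALB/c, and the pigmented one is C57BL/6J. By the stated design the strains were chosen because their retinas degenerate at different rates, so pigmentation is one of many differences between them. Nothing in the labels tells if a strain's 3 libraries came from separate pools, so the p-values rest on library-to-library spread that may be technical.

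Melanin is made in melanosomes, lysosome-related organelles of melanocytes in the iris, ciliary body and choroid and of the retinal pigment epithelium. Tyrosinase, encoded by Tyr, starts the pathway by oxidising tyrosine, and the related enzymes encoded by Dct and Tyrp1 act on later intermediates. The albino coat and eyes of A/J and BALB/c come from a coding change in Tyr that leaves the enzyme inactive, and both strains also carry the brown allele of Tyrp1. In skin melanocytes, Mc1r signals through cyclic AMP to raise Mitf, the transcription factor that binds the M-box, a sequence in the promoters of pigment enzyme genes.

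The promoters of 5 of the genes are shown because they hold the core of the M-box. RefSeq promoter windows of build GRCm38.p6 were matched by symbol for 7 of the 10 genes, and the 250 bases before each transcript start were searched on both strands. The core of the M-box, TCATGTG, lay in the windows of 5 of these 7 genes, Tyr, Tyrp1, Dct, Mc1r and Slc24a5, and in 3.72% of all 27025 genes with a window. Its inner E-box CATGTG, which every core contains, lay in 6 of the 7, the same 5 and Oca2, and in 13.8% of all genes. The other E-box searched, CACGTG, lay in none of the 7 and in 6.86% of all genes. The 11 bases around the Tyr core, AGTCATGTGCT, lay in Tyrp1 as well and in 0.0259% of all genes, Tyr and Tyrp1 included. Since the M-box is a sequence of pigment enzyme promoters and the 11 bases came from Tyr itself, these shares are descriptions and no test. The 160 bases before the start are printed 5′ to 3′ on the gene's strand, with a core in capitals.
Tyr: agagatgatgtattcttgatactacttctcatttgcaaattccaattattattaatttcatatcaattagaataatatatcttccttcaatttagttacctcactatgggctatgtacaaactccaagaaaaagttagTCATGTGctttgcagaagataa
Tyrp1: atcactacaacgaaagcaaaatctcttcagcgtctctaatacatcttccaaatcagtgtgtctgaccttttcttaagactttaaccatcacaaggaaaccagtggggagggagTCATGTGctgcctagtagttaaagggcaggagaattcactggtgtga
Dct: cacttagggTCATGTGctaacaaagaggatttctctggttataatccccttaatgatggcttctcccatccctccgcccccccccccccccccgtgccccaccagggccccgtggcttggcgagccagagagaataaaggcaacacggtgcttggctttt
Mc1r: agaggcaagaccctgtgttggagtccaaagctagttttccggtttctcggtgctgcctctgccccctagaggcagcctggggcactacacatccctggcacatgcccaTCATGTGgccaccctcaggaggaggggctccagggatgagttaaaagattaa
Slc24a5: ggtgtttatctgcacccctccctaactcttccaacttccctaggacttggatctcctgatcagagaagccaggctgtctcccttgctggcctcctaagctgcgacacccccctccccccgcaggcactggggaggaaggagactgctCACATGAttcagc
These windows are chr7:87493513-87493672 on the minus strand for Tyr, chr4:80834053-80834212 on the plus strand for Tyrp1, chr14:118052247-118052406 on the minus strand for Dct, chr8:123406922-123407081 on the plus strand for Mc1r and chr2:125067967-125068126 on the plus strand for Slc24a5. The core begins 22 bases before the start in Tyr, 47 in Tyrp1, 151 in Dct and 52 in Mc1r. In Slc24a5 it lies on the opposite strand, so that it reads CACATGA in the printed run, 13 bases before the start. Dct has a second core, on the opposite strand, 232 bases before the start and outside the printed run. A match is a run of letters in the reference sequence and not a shown binding site. The reference derives from C57BL/6J, and the promoter sequences of A/J and BALB/c were not analysed here.

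The pigment genes covered a wide range of levels, given here in RPKM, a read number corrected for the length of the gene and the total of the library. The tables name no unit, and RPKM was inferred from their values. Dct was the highest of the 10 in every strain and Mc1r the lowest. The order Dct, Tyrp1, Mlana, Slc24a5, Tyr held in all 3 strains, with no overlap between the libraries of neighbours in that order. Below Tyr the order was less firm. Tyr and Oca2 overlapped in A/J, Oca2 and Slc45a2 overlapped in BALB/c, and in C57BL/6J the overlapping neighbours were Slc45a2 with Oca2 and Gpr143 with Mitf. The mean level of Dct was 176 times that of Mc1r in A/J libraries, 147 times in BALB/c libraries and 389 times in C57BL/6J libraries. Dct lay above 99.6% of all listed genes in A/J, 99.5% of them in BALB/c and 99.5% of them in C57BL/6J. Mc1r lay above 19.2% of listed genes in A/J, 24.7% of them in BALB/c and 4.8% of them in C57BL/6J. In whole-eye RNA, fewer cells of a type and less RNA per cell cannot be told apart.

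**Figure D1:**
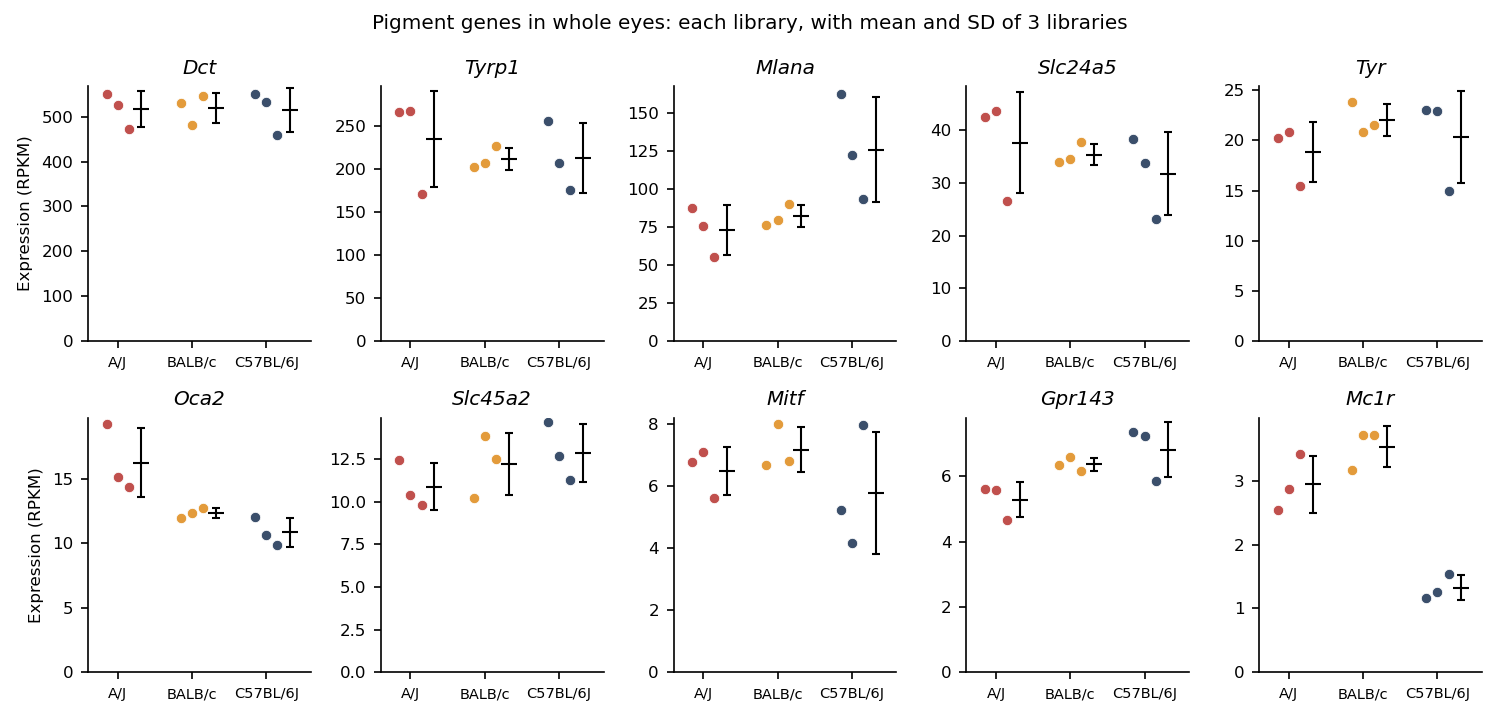
Expression in RPKM of the 10 pigment genes in each whole-eye library, 1 panel per gene ordered by mean level, with A/J left, BALB/c in the middle and C57BL/6J right; each point is a library and the bar beside the points is the mean and SD of 3 libraries. In the Mc1r panel the 6 albino libraries (2.54 to 3.72 RPKM) lie above the 3 C57BL/6J libraries (1.17 to 1.54 RPKM), while the enzyme panels Dct, Tyrp1 and Tyr overlap.

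The libraries of BALB/c were more alike than those of the other strains, and A/J 3 and C57BL/6J 3 were often at the end of their strain's range. Across all genes, the Spearman correlation between libraries was 0.918 to 0.991 within A/J, 0.991 to 0.996 within BALB/c and 0.911 to 0.982 within C57BL/6J. The median SD of the 10 pigment genes on the log2 scale was 0.22 in A/J, where it was 0.26 over all genes, 0.087 in BALB/c (0.1 over all genes) and 0.3 in C57BL/6J (0.25 over all genes). A/J 3 held the lowest A/J value of 9 of the 10 genes, all but Mc1r, for which it was the highest, and after scaling it was the lowest A/J library for 47.1% of all genes. C57BL/6J 3 held the lowest C57BL/6J value of 8, all but Mitf and Mc1r, for which it was the highest, and it was the lowest of its strain for 42.3% of all genes. C57BL/6J 1 was the highest of its strain for 8 of the 10 (35.5% of all genes), and BALB/c 1 the lowest for 7 (38.3%). The deviation of a gene from its mean over the libraries followed the GC content of its transcript with a Spearman correlation of -0.65, -0.72 and 0.46 in A/J 1, 2 and 3, of 0.1, 0.56 and 0.56 in the same order for BALB/c, and of -0.3, 0.24 and 0.39 for C57BL/6J. Results of the genes named below are therefore also given without A/J 3 and C57BL/6J 3 where that changes a call between strains.

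Mc1r was the only one of the 10 genes that passed the test in either albino strain against C57BL/6J, and it rose in both. Differences were tested with limma on log2 values after scaling between libraries, over 12920 genes, with calls made where the adjusted p was under 0.05. Against C57BL/6J, 1 of the 10 genes was called in A/J, where 2.69% of all genes were called, and 1 of the 10 in BALB/c, where 3.09% were. Without A/J 3 the first count was 2, Mc1r and Oca2, where 28.2% of all genes were called. In each strain Mc1r was higher than in C57BL/6J, a direction called for 1.08% of all genes in A/J and 1.93% in BALB/c. The mean of the 6 albino libraries, each strain weighted equally, also gave 1 of 10, with 2.74% of all genes called and 1.28% called higher. None of the 10 was called between A/J and BALB/c, where 2.48% of all genes were, and 0 of the 10 had an unadjusted p under 0.05 there, against 20.9% of all genes. Against C57BL/6J the unadjusted count was 3 in A/J (17.5% of all genes), 2 in BALB/c (13.8%) and 4 for the albino mean (14.2%). In deposited RPKM, 4 of the 10 genes had no overlap between A/J and C57BL/6J libraries (Mc1r and Oca2 higher, Mlana and Gpr143 lower), as did 16.3% of all genes. Mc1r and Mlana were the 2 genes without overlap between BALB/c and C57BL/6J, where the share of all genes was 33.4%, and between the 6 albino and the C57BL/6J libraries, where it was 8.47%. Between A/J and BALB/c, Oca2 and Gpr143 had no overlap, and 33.1% of all genes had none. The comparisons with C57BL/6J share the same 3 C57BL/6J libraries, so they are not independent of each other. The median log2 change of the 10 genes was 0.18 for A/J minus C57BL/6J and 0.25 for BALB/c minus C57BL/6J, against -0.01 over all genes in both. These medians moved with the libraries used. The A/J median was 0.01 without C57BL/6J 3, 0.17 without A/J 3 and C57BL/6J 3, and -0.2 without A/J 1 and 2. The BALB/c median was 0.05 without C57BL/6J 3.

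Of the melanin enzymes, Tyr had 20.28, 20.85 and 15.43 RPKM in A/J, 23.85, 20.84 and 21.50 RPKM in BALB/c, and 23.01, 22.97 and 15 RPKM in C57BL/6J. The strains overlapped, and A/J 3 and C57BL/6J 3 were the low libraries. The gene whose product is inactive in the albino strains was measured at 18.9 ± 2.98 RPKM in A/J and 22.1 ± 1.58 RPKM in BALB/c, against 20.3 ± 4.61 RPKM in C57BL/6J (SD, n = 3 each). Its log2 change was 0.02 for A/J minus C57BL/6J (95% interval -0.49 to 0.52, adjusted p = 0.97) and 0.31 for BALB/c minus C57BL/6J (-0.20 to 0.82, adjusted p = 0.63). Neither interval leaves out a change of 0, and a p above the threshold does not show equal levels. The values were -0.24 in A/J and 0.05 in BALB/c without C57BL/6J 3. When each library's trend on GC content was removed they were -0.43 in A/J (unadjusted p = 0.02, adjusted p = 0.17) and 0.41 in BALB/c (unadjusted p = 0.025, adjusted p = 0.20). Between the albino strains Tyr had a log2 change of -0.30 for A/J minus BALB/c (adjusted p = 0.42), and of -0.84 (adjusted p = 0.02) after removal of the GC trend. The Tyr transcript holds 35.2% GC, the lowest of the 10.

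Tyrp1, whose product stabilises tyrosinase and oxidises a late intermediate of the dark pigment eumelanin, had 267.09, 267.87 and 170.96 RPKM in A/J, 203.06, 207.33 and 227.05 RPKM in BALB/c, and 256.70, 207.50 and 175.65 RPKM in C57BL/6J. The spread within A/J and C57BL/6J covered all the BALB/c libraries. Its log2 change was 0.24 in A/J (95% interval -0.28 to 0.76, adjusted p = 0.52) and 0.19 in BALB/c (-0.33 to 0.71, adjusted p = 0.82), both against C57BL/6J. Without C57BL/6J 3 these values were 0.05 in A/J and -0.01 in BALB/c, and the BALB/c value was 0.01 on the values as deposited. For A/J minus BALB/c the log2 change was 0.05 (adjusted p = 0.90). Without A/J 3 and C57BL/6J 3 it was 0.28 and called (adjusted p = 0.04), where 60.2% of all genes were called.

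Dct encodes dopachrome tautomerase, which acts between the other enzymes of the pathway. Its levels were 551.08, 526.70 and 474.02 RPKM in A/J, 530.99, 481.76 and 546.56 RPKM in BALB/c, and 551.16, 534.28 and 459.83 RPKM in C57BL/6J. It had the narrowest intervals of the 10 except for Mc1r, with a log2 change of 0.12 for A/J minus C57BL/6J (95% interval -0.22 to 0.46, adjusted p = 0.63) and 0.19 for BALB/c minus C57BL/6J (-0.15 to 0.54, adjusted p = 0.67). Without C57BL/6J 3 the values were -0.02 in A/J and 0.05 in BALB/c. The strain means of Dct were within 1 SD of each other, at 517 ± 39.4 RPKM in A/J, 520 ± 33.8 RPKM in BALB/c and 515 ± 48.6 RPKM in C57BL/6J.

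Mitf, the transcription factor of the pathway, had 6.76, 7.10 and 5.63 RPKM in A/J, 6.68, 8 and 6.82 RPKM in BALB/c, and 5.22, 4.17 and 7.97 RPKM in C57BL/6J. C57BL/6J 3 was the highest library of its strain and reached the BALB/c levels, while C57BL/6J 1 and 2 lay below every albino library. The log2 change was 0.30 in A/J (95% interval -0.13 to 0.73, adjusted p = 0.37) and 0.49 in BALB/c (0.07 to 0.92, adjusted p = 0.28), neither of which passed the test. Without A/J 3 and C57BL/6J 3, Mitf was called in both, at 0.58 in A/J (adjusted p = 0.0087) and 0.67 in BALB/c (adjusted p = 0.0054). In that fit 39.4% of all genes were called in A/J and 14.7% in BALB/c, so a call there is common.

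**Figure D2:**
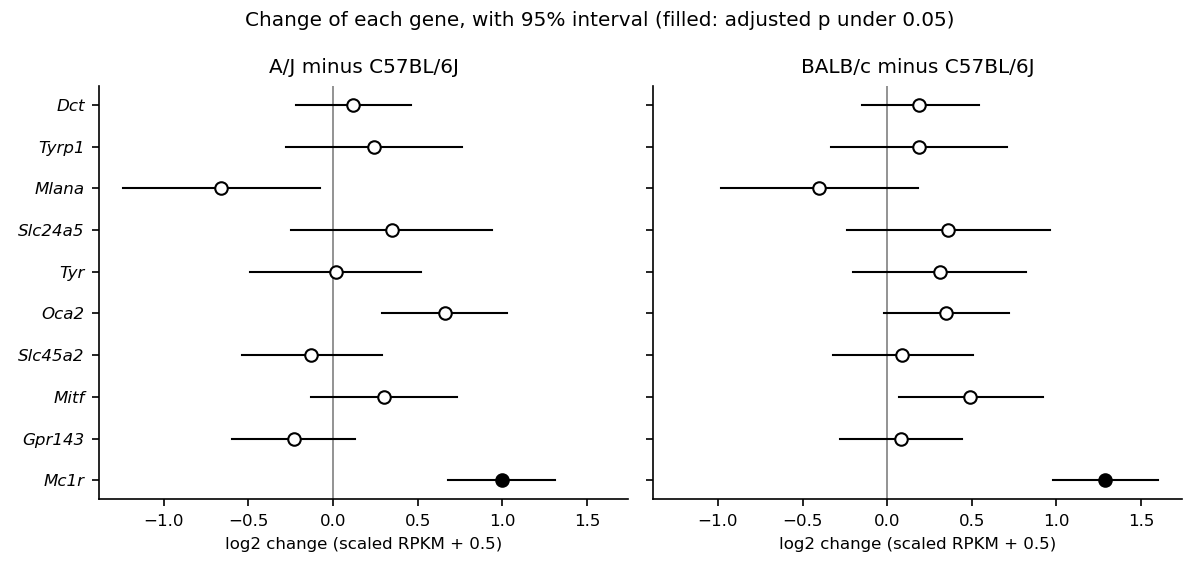
Log2 change of each of the 10 pigment genes with its 95% interval, for A/J minus C57BL/6J on the left and BALB/c minus C57BL/6J on the right, on the scale of log2(scaled RPKM + 0.5); filled points have an adjusted p under 0.05. Mc1r is filled in both panels, at 1.00 in A/J and 1.29 in BALB/c, and the other 9 genes are open in both.

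Of the receptors, Mc1r was called and Gpr143 was not. Mc1r had 2.54, 2.87 and 3.41 RPKM in A/J, 3.16, 3.72 and 3.71 RPKM in BALB/c, and 1.17, 1.26 and 1.54 RPKM in C57BL/6J. Each of the 6 albino libraries was above each of the 3 C57BL/6J libraries, a pattern that 1.7% of all genes showed in this direction. Mc1r averaged 2.94 ± 0.439 RPKM in A/J and 3.53 ± 0.32 RPKM in BALB/c, against 1.32 ± 0.193 RPKM in C57BL/6J (SD, n = 3 each). This gave a log2 change of 1.00 ± 0.14 for A/J minus C57BL/6J (SE, 95% interval 0.68 to 1.31, adjusted p = 0.0048), a fold of 1.99, and 1.29 ± 0.14 for BALB/c minus C57BL/6J (0.98 to 1.60, adjusted p = 0.0011), a fold of 2.45. By unadjusted p, Mc1r was number 123 of 12920 genes in A/J and number 68 in BALB/c. These values understate a change at low levels, because 0.5 was added to each value before the log2. With 0.1 in its place the log2 changes were 1.20 and 1.53.

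The higher Mc1r level held in each of the 22 other ways of processing the values that were tried, with log2 changes of 0.83 to 1.20 in A/J (adjusted p 0.00038 to 0.045) and of 1.09 to 1.53 in BALB/c (adjusted p 7.5e-05 to 0.013). Without A/J 3 and C57BL/6J 3 it was 0.95 in A/J (adjusted p = 0.0013) and 1.32 in BALB/c (adjusted p = 7.5e-05). After removal of the GC trend it was 1.14 in A/J and 1.27 in BALB/c, the Mc1r transcript holding 53.6% GC, the highest of the 10. Between the albino strains the libraries overlapped, and the log2 change was -0.29 for A/J minus BALB/c (95% interval -0.61 to 0.02, adjusted p = 0.25). Without A/J 3 and C57BL/6J 3 it was -0.37 and called (adjusted p = 0.026), where 60.2% of all genes were called. Gene models place an unnamed transcript, Gm38092, on the opposite strand over some exon bases of Mc1r. Whether the authors' counting used strand is not given in the sources used here, so reads of that transcript cannot be told apart from those of Mc1r.

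Gpr143, a receptor in the melanosome membrane whose loss causes ocular albinism, had 5.60, 5.58 and 4.67 RPKM in A/J, 6.33, 6.57 and 6.16 RPKM in BALB/c, and 7.36, 7.21 and 5.84 RPKM in C57BL/6J. The A/J libraries lay below all the others in deposited RPKM, but after scaling between libraries C57BL/6J 3, at 2.47 on the log2 scale, lay below A/J 1 and 2, at 2.65 and 2.63. The log2 change was -0.23 for A/J minus C57BL/6J (95% interval -0.60 to 0.13, adjusted p = 0.40) and 0.08 for BALB/c minus C57BL/6J (-0.28 to 0.44, adjusted p = 0.91), the second of which was -0.09 on the values as deposited and -0.08 without C57BL/6J 3. Gpr143 was called in none of the 22 alternatives.

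The melanosome transporters were not called either. Oca2, a melanosomal membrane protein that sets the organelle's ion balance and pH, had 19.29, 15.17 and 14.35 RPKM in A/J, 11.94, 12.35 and 12.74 RPKM in BALB/c, and 12.09, 10.68 and 9.85 RPKM in C57BL/6J. Every A/J library was above every library of the other strains, and BALB/c overlapped C57BL/6J. Oca2 averaged 16.3 ± 2.65 RPKM in A/J and 12.3 ± 0.4 RPKM in BALB/c, against 10.9 ± 1.13 RPKM in C57BL/6J (SD, n = 3 each). For A/J minus C57BL/6J the log2 change was 0.66 (95% interval 0.29 to 1.03, unadjusted p = 0.0029), with an adjusted p of 0.082, above the threshold. Over the alternatives it lay between 0.45 and 0.76 (adjusted p 0.0051 to 0.61), and Oca2 was called in 2 of the 22. These were without A/J 3 (0.76, adjusted p = 0.021, where 28.2% of all genes were called) and without A/J 3 and C57BL/6J 3 (0.63, adjusted p = 0.0051, where 39.4% were). For BALB/c minus C57BL/6J it was 0.35 (95% interval -0.02 to 0.72, adjusted p = 0.39). For A/J minus BALB/c it was 0.31 (adjusted p = 0.29). Without A/J 3 and C57BL/6J 3 that value was 0.41 and called (adjusted p = 0.012), where 60.2% of all genes were called.

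Slc45a2, a transporter needed for melanosome pH and pigment, had 12.43, 10.37 and 9.82 RPKM in A/J, 10.24, 13.82 and 12.49 RPKM in BALB/c, and 14.67, 12.67 and 11.29 RPKM in C57BL/6J. All the strains overlapped. Its log2 change was -0.13 in A/J (95% interval -0.54 to 0.29, adjusted p = 0.66) and 0.09 in BALB/c (-0.32 to 0.51, adjusted p = 0.91) against C57BL/6J, and the BALB/c value was -0.06 without C57BL/6J 3.

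Slc24a5, a cation exchanger whose zebrafish counterpart is mutated in golden fish, had 42.59, 43.68 and 26.53 RPKM in A/J, 33.94, 34.51 and 37.72 RPKM in BALB/c, and 38.41, 33.74 and 23.10 RPKM in C57BL/6J. A/J 3 and C57BL/6J 3 were the low libraries, and the strains overlapped. The log2 change was 0.35 in A/J (95% interval -0.25 to 0.94, adjusted p = 0.44) and 0.36 in BALB/c (-0.24 to 0.96, adjusted p = 0.64), the A/J value passing the test in 1 of 22 alternatives, without A/J 3 and C57BL/6J 3 (0.32, adjusted p = 0.032). In that setting 39.4% of all genes were called in A/J, and the BALB/c value was 0.09 (adjusted p = 0.56). Leaving out C57BL/6J 3 alone gave 0.08 in A/J and 0.09 in BALB/c. Slc24a5 shares exon bases with Myef2, a gene on the opposite strand that is also listed, so its level is uncertain if strand was not used in counting.

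Mlana, a small melanosomal membrane protein that in human cells binds the fibril protein Pmel, had 87.41, 75.89 and 55.36 RPKM in A/J, 76.37, 79.65 and 90.41 RPKM in BALB/c, and 162.38, 122.11 and 93.31 RPKM in C57BL/6J. All 6 albino libraries were below all 3 C57BL/6J libraries in deposited RPKM, a pattern that 6.76% of all genes showed in this direction. After scaling between libraries the groups overlapped, since C57BL/6J 3, at 6.341 on the log2 scale, was below A/J 1, at 6.5, and below the BALB/c libraries, at 6.344, 6.43 and 6.59. Mlana averaged 72.9 ± 16.2 RPKM in A/J and 82.1 ± 7.34 RPKM in BALB/c, against 126 ± 34.7 RPKM in C57BL/6J (SD, n = 3 each). Its log2 change was -0.66 for A/J minus C57BL/6J (95% interval -1.24 to -0.08, adjusted p = 0.25) and -0.40 for BALB/c minus C57BL/6J (-0.98 to 0.18, adjusted p = 0.58). Neither passed the test, and the difference was called in 1 of 22 alternatives in each strain, without A/J 3 and C57BL/6J 3, at -0.72 in A/J (adjusted p = 0.0045) and -0.66 in BALB/c (adjusted p = 0.0075). In that fit 39.4% of all genes were called in A/J and 14.7% in BALB/c.

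Mc1r, Mlana and Oca2 were also set against the enzyme genes of the same library. The sum of Tyr, Tyrp1 and Dct was 838, 815 and 660 RPKM in A/J, 758, 710 and 795 RPKM in BALB/c, and 831, 765 and 650 RPKM in C57BL/6J, which overlapped. Per 1000 RPKM of that sum, Mc1r came to 3.03, 3.52 and 5.16 in A/J, 4.17, 5.24 and 4.67 in BALB/c, while the C57BL/6J libraries had 1.41, 1.65 and 2.37. The albino libraries were again all above the C57BL/6J libraries, the nearest being A/J 1 and C57BL/6J 3. Mlana per 1000 RPKM of the enzymes was 104, 93.1 and 83.8 in A/J, 101, 112 and 114 in BALB/c, while the C57BL/6J libraries had 195, 160 and 143. On this scale the albino libraries were all below the C57BL/6J libraries. Oca2 per 1000 RPKM of the enzymes was 23.0, 18.6 and 21.7 in A/J and 15.8, 17.4 and 16.0 in BALB/c, while the C57BL/6J libraries had 14.6, 14.0 and 15.1, below all the albino libraries. These ratios are descriptions and were not tested. The ratio was planned for Mc1r alone, and Mlana and Oca2 had already stood apart in deposited RPKM, Oca2 in A/J only. The other members were not set against the sum. No share of all genes was worked out on this scale.

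**Figure D3:**
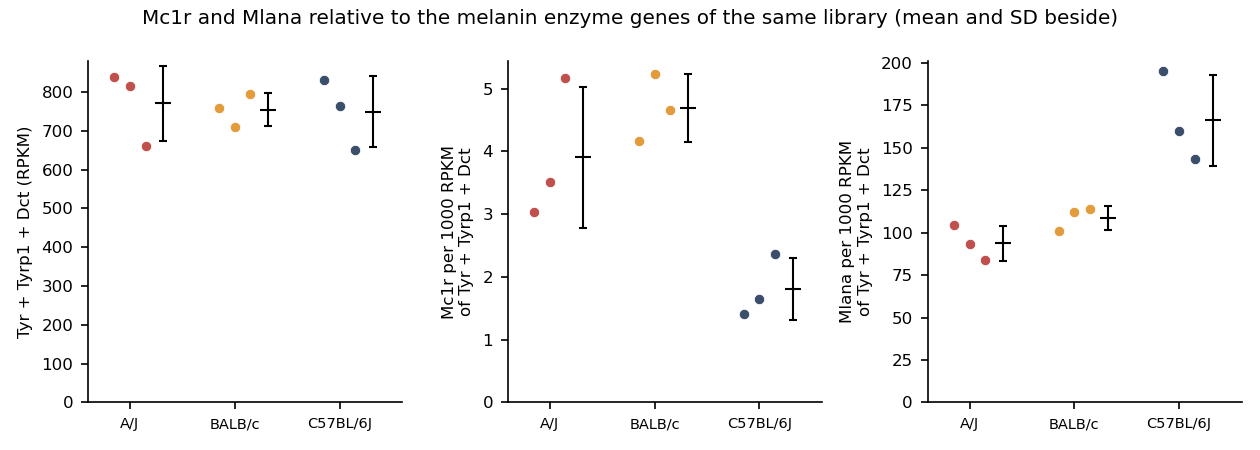
Summed RPKM of Tyr, Tyrp1 and Dct (left), and Mc1r (middle) and Mlana (right) per 1000 RPKM of that sum, in each library, with A/J left, BALB/c in the middle and C57BL/6J right, and with the mean and SD of 3 libraries beside the points. The sums overlap between strains, Mc1r per 1000 RPKM is 3.03 to 5.24 in the albino libraries and 1.41 to 2.37 in C57BL/6J, and Mlana per 1000 RPKM is 83.8 to 114 in the albino libraries and 143 to 195 in C57BL/6J.

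Markers of the cells that make pigment were present in all 9 libraries. The 7 melanocyte markers analysed, of which Dct, Tyrp1 and Mlana are also among the 10 genes, summed to 1077 to 1326 RPKM in A/J, 1246 to 1359 RPKM in BALB/c and 1086 to 1438 RPKM in C57BL/6J. The 9 markers of the pigment epithelium, Rpe65 and Rlbp1 among them, summed to 1356 to 1801 RPKM in A/J, 1361 to 1517 RPKM in BALB/c and 1418 to 1873 RPKM in C57BL/6J. Both cell types make melanin, so the melanocyte list does not tell melanocytes from pigment epithelium. No marker of either list was called in any comparison. Rpe65, the isomerase of the visual cycle, had 228.99, 249.88 and 116.62 RPKM in A/J, 102.41, 101.45 and 114.05 RPKM in BALB/c, and 96.53, 81.69 and 56.05 RPKM in C57BL/6J. Its albino libraries were all above its C57BL/6J libraries, a pattern that 1.7% of all genes showed in this direction. The log2 change was 1.41 in A/J (adjusted p = 0.06) and 0.65 in BALB/c (adjusted p = 0.44), neither called. Rpe65 is 1 of 9 markers, whose median log2 change was 0.26 in A/J and 0.06 in BALB/c. The melanocyte factor Sox10 was not analysed here. Of the other marker lists, the 6 lens markers summed to 41550 to 48720 RPKM in A/J and 49920 to 65350 RPKM in BALB/c, against 23070 to 42760 RPKM in C57BL/6J, and none of them was called against C57BL/6J. The 8 markers of Schwann cells and oligodendrocytes summed to 312.9 to 1103 RPKM in A/J and 210.0 to 319.1 RPKM in BALB/c, against 93.41 to 357.9 RPKM in C57BL/6J, with none called. Of 6 markers of cornea and surface epithelium, 3 were called lower and 0 higher in each albino strain against C57BL/6J. Of all genes, 1.62% were called lower in A/J and 1.15% in BALB/c. Krt12 of the cornea went the other way, uncalled, with 2935, 3015 and 2227 RPKM in A/J and 2241, 2550 and 2709 RPKM in BALB/c. In C57BL/6J it had 2425, 1632 and 1727 RPKM. The list summed to 3316 to 3962 RPKM in A/J and 3435 to 4132 RPKM in BALB/c, against 2983 to 4452 RPKM in C57BL/6J. The 8 rod and cone markers summed to 11180 to 11330 RPKM in A/J and 11820 to 12490 RPKM in BALB/c. In C57BL/6J they summed to 12120 to 13650 RPKM, above all the A/J sums. Sag was the 1 marker called, higher in A/J, where 1.08% of all genes were called higher. The 6 skeletal muscle markers summed to 943 to 1343 RPKM in A/J and 805.5 to 942.6 RPKM in BALB/c. In C57BL/6J they summed to 1125 to 1772 RPKM, above all the BALB/c sums. Mb was the 1 marker called, lower in BALB/c, where 1.15% of all genes were called lower. The 6 markers of uveal vessels and stroma summed to 1003 to 1468 RPKM in A/J and 883.8 to 918 RPKM in BALB/c, against 876.4 to 1615 RPKM in C57BL/6J, with none called. The part of these tissues and of the pigment epithelium in the Mc1r difference was not tested.

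The rest of the pathway was counted from 5 lists of 91 other pigment genes, of which 78 were analysed. In A/J against C57BL/6J 2 of 78 were lower and 0 higher, which is 2.56% called, against 2.69% of all genes (1.62% lower). In BALB/c against C57BL/6J also 2 were lower and 0 higher, against 3.09% of all genes (1.15% lower). Both shares are near those of all genes. The median log2 change of the 78 was -0.09 in A/J and 0.04 in BALB/c. The called genes were Mcoln3 and Myo7a in both comparisons. With A/J 3 left out, 21 of the 78 were called in A/J against C57BL/6J, and 28.2% of all genes.

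Mcoln3, a cation channel of endosomes and lysosomes whose varitint-waddler mutation dilutes the mouse coat, was the called gene among 14 of melanosome matrix and membrane. It had 1.31, 1.79 and 1.04 RPKM in A/J, 1.62, 1.51 and 1.43 RPKM in BALB/c, and 5.04, 5.29 and 5.35 RPKM in C57BL/6J. The albino libraries lay far below the C57BL/6J libraries with no overlap. Mcoln3 had a log2 change of -1.53 ± 0.16 in A/J (SE, adjusted p = 0.00097) and -1.35 ± 0.16 in BALB/c (adjusted p = 0.0022), and the call held in all 22 alternatives of each. Pmel, the fibril protein of the melanosome that is listed under its older symbol Si, averaged 286 ± 24.5 RPKM in A/J, 341 ± 30.5 RPKM in BALB/c and 294 ± 62.6 RPKM in C57BL/6J (SD, n = 3 each) and was not called.

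Myo7a, a myosin that moves melanosomes into the apical processes of the pigment epithelium and also works in photoreceptors, was the called gene among 11 of melanosome transport. It had 1.86, 1.42 and 2.20 RPKM in A/J, 2.49, 2.80 and 2.83 RPKM in BALB/c, and 4.71, 5.32 and 6.40 RPKM in C57BL/6J. The A/J libraries were lowest, the BALB/c libraries next and the C57BL/6J libraries highest, with no overlap between any of the strains. The difference between the albino strains was not called, at -0.54 for A/J minus BALB/c (adjusted p = 0.12), and 33.1% of all genes had no overlap there. Without A/J 3 it was -0.64 and called (adjusted p = 0.018), where 34.6% of all genes were called. Without A/J 3 and C57BL/6J 3 it was -0.63 and called (adjusted p = 0.0027), where 60.2% were. Against C57BL/6J Myo7a had a log2 change of -1.27 ± 0.16 in A/J (SE, adjusted p = 0.0022) and -0.73 ± 0.16 in BALB/c (adjusted p = 0.039). The BALB/c call was lost in 7 of 22 alternatives, each of which left out 1 library (A/J 1, any of BALB/c or any of C57BL/6J), with an adjusted p of up to 0.19, and the A/J call in 1, without A/J 1 and 2 (adjusted p = 0.055).

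Mlph, which links melanosomes to the actin motor of the cell, was the called gene of the lists between the albino strains, where 1 of 78 was called, lower in A/J (1.28%, against 2.48% of all genes called and 1.9% called lower). The count was 23 without A/J 3 (34.6% of all genes called) and 5 without C57BL/6J 3 (4.72%). It had 7.40, 6.99 and 11.56 RPKM in A/J, 13.60, 15.93 and 16.01 RPKM in BALB/c, and 14.37, 14.15 and 13.42 RPKM in C57BL/6J. In deposited RPKM the A/J libraries were below all the others, with A/J 3 nearest to them. Of all genes, 16.3% had no overlap between A/J and C57BL/6J and 33.1% had none between A/J and BALB/c. For A/J minus C57BL/6J the log2 change of Mlph was -0.59 (adjusted p = 0.17), not called, and it was called in 2 of 22 alternatives. The log2 change was -0.87 ± 0.19 for A/J minus BALB/c (SE, adjusted p = 0.048). It passed in 7 of 22 alternatives. The call was lost without any 1 of A/J 1, A/J 2, the 3 BALB/c libraries, C57BL/6J 1 and C57BL/6J 2, and the adjusted p reached 0.56 without A/J 1 and 2. It was also lost with the replicate number as a block (adjusted p = 0.061), where Tcfe3 was the 1 gene of the lists called, and with a filter of 2 RPKM, values as deposited, quantile normalization, GC correction with or without the block, or only the strains compared.

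The other 3 lists held no gene called by limma in any comparison, the alternatives aside. An unadjusted p under 0.05 was seen for 0 of 10 transcription factors, 2 of 18 signalling genes and 1 of 25 biogenesis genes in A/J against C57BL/6J (17.5% of all genes), for 0, 1 and 3 genes of these lists in BALB/c against C57BL/6J (13.8% of all genes), and for 2, 1 and 2 in A/J against BALB/c (20.9% of all genes). Among the transcription factors of pigment cells, the highest were Pax6 and Otx2, which specify eye and pigment epithelium. Pax6 averaged 101 ± 19.6 RPKM in A/J, 69.0 ± 2.16 RPKM in BALB/c and 94.9 ± 19.5 RPKM in C57BL/6J (SD, n = 3 each), and Otx2 averaged 70.6 ± 7.45 RPKM in A/J, 54.8 ± 3.05 RPKM in BALB/c and 61.0 ± 8.01 RPKM in C57BL/6J. Among the genes of melanocortin, Kit and endothelin signalling the highest were Gnas and Prkar1a, which act below Mc1r as the stimulatory G protein and the regulatory subunit of protein kinase A. Gnas had 241, 248 and 215 RPKM in A/J, 181, 190 and 201 RPKM in BALB/c, and 253, 225 and 1029 RPKM in C57BL/6J. C57BL/6J 3 stood far above the other 8 libraries for this gene. Prkar1a averaged 119 ± 12.3 RPKM in A/J and 84.5 ± 1.94 RPKM in BALB/c, against 102 ± 6.75 RPKM in C57BL/6J. Among the genes of melanosome biogenesis complexes the highest were Bloc1s1 and Dtnbp1, subunits of the complex that sorts cargo to melanosomes. Bloc1s1 averaged 71.0 ± 5.72 RPKM in A/J, 94.1 ± 9.21 RPKM in BALB/c and 82.2 ± 11.5 RPKM in C57BL/6J. Dtnbp1 averaged 70.9 ± 5.63 RPKM in A/J, 57.6 ± 0.384 RPKM in BALB/c and 69.9 ± 6.44 RPKM in C57BL/6J. Without A/J 3 and C57BL/6J 3 these named genes were called in A/J minus BALB/c, where 60.2% of all genes were. Pax6, Otx2, Gnas, Prkar1a and Dtnbp1 were higher in A/J (log2 change 0.31 to 0.64) and Bloc1s1 lower (-0.51). Against C57BL/6J, Prkar1a was then called in A/J (0.30, adjusted p = 0.034), where 39.4% of all genes were. Bloc1s1 was called in BALB/c (0.42, adjusted p = 0.02), where 14.7% were.

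**Figure D4:**
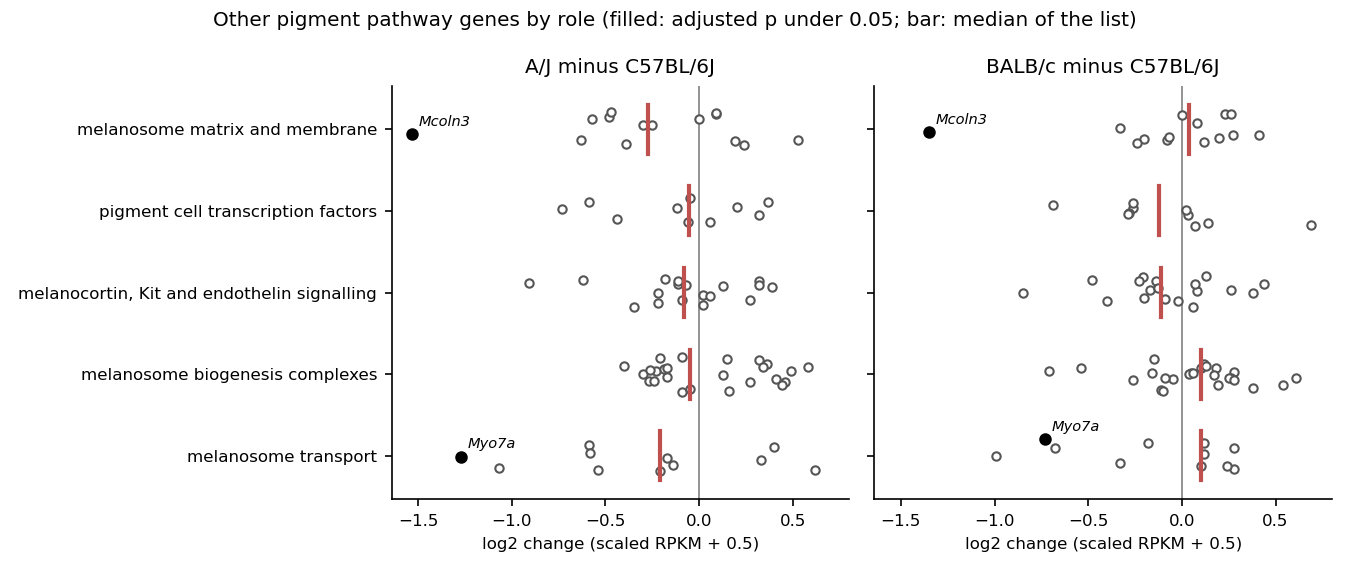
Log2 change of 78 other pigment pathway genes in 5 lists by role, for A/J minus C57BL/6J (left) and BALB/c minus C57BL/6J (right), on the scale of log2(scaled RPKM + 0.5); each point is a gene, filled where its adjusted p was under 0.05, and the vertical bar is the median of the list. The filled genes are Mcoln3 (-1.53 in A/J, -1.35 in BALB/c) and Myo7a (-1.27 in A/J, -0.73 in BALB/c).

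The genes beside Mc1r on the chromosome were not called. The nearest 3 listed genes on each side, in the order of RefSeq genes on GRCm38.p6, were Zfp276, Spire2 and Tcf25 before it and Tubb3, Def8 and Afg3l1 after it. Their log2 changes were -0.47 to 0.10 in A/J (adjusted p 0.38 to 0.70) and -0.26 to 0.18 in BALB/c (adjusted p 0.78 to 0.95) against C57BL/6J. Tcf25 and Tubb3, with no other gene of that table between them and Mc1r, had -0.47 and -0.19 in A/J and -0.26 and 0.18 in BALB/c. For Tcf25, C57BL/6J 3 stood apart at 177.51 RPKM. C57BL/6J 1 and 2 had 62.37 and 65.98 RPKM, and the albino libraries 49.42 to 79.61 RPKM. The difference between Mc1r and its neighbours was not tested.

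**Figure D5:**
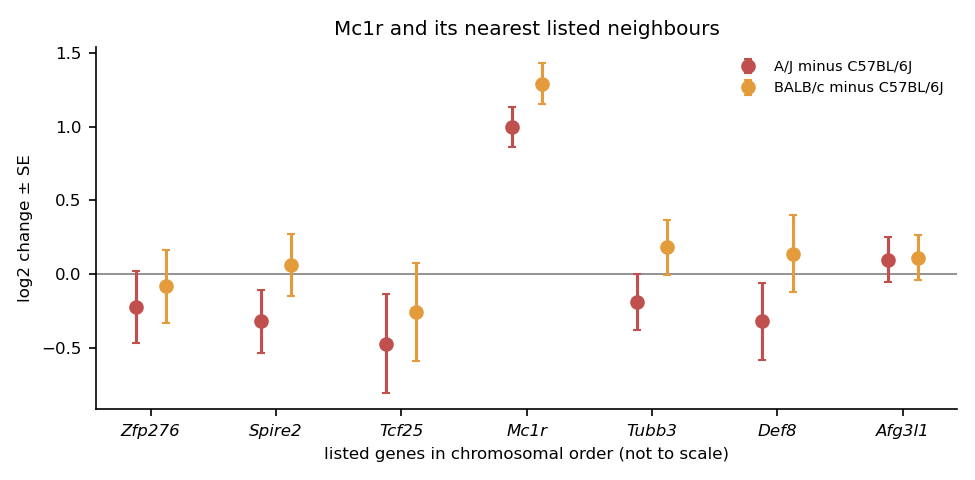
Log2 change with its SE of Mc1r and of the nearest 3 listed genes on each side, in chromosomal order and not to scale, for A/J minus C57BL/6J and BALB/c minus C57BL/6J. Mc1r lies at 1.00 and 1.29, and the 6 neighbours lie between -0.47 and 0.18.

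The genes most like Mc1r in pattern were found by the root mean square difference between log2 values centred over the 9 libraries. The closest with a gene name were Dock8 (0.186), Atp10d (0.201), Ppargc1b (0.201), Acaa1b (0.212) and Igsf11 (0.212), a clone name being passed over. Dock8, an exchange factor for small GTPases, had 2.63, 2.70 and 2.34 RPKM in A/J, 3.66, 3.47 and 3.49 RPKM in BALB/c, and 1.44, 1.33 and 1.55 RPKM in C57BL/6J. As with Mc1r, every albino library was above every C57BL/6J library, and the BALB/c mean was the highest. Of the other 9 pigment genes the closest to Mc1r were Mitf, at rank 313 of the genes tested, and Oca2, at rank 651, while Mlana was at rank 11906. Genes chosen for likeness over these libraries differ between strains by that choice.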

How the data were processed

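Whole-eye poly(A) RNA of 3 mouse strains was sequenced in 9 libraries, 3 per strain, grouped by the strain in the labels. The submitters' processing notes name CASAVA 1.7, GenomeStudio and build mm9, which derives from C57BL/6J. Whether reads of A/J and BALB/c mapped less well was not tested. The deposited values were taken as RPKM, although the files name no unit, because value times transcript length, added up over genes, gave 99.4% to 101.8% of what RPKM should give in 8 libraries and 117.4% in C57BL/6J 3. The use of strand in counting is not given in the sources used here. Depth is unknown: a search for whole reads found no more than 39.77% of low values within 0.1 of a whole number in any library. With gene lengths shuffled it found up to 44.59%. Real lengths exceeded the best shuffle only in A/J 1 (37.61% against 32.48%), C57BL/6J 2 (39.77% against 36.36%) and C57BL/6J 3 (37.65% against 36.47%). No counting interval is therefore given.

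Deposited values were scaled with median-of-ratios factors between 0.931 and 1.158 and used as log2 of the scaled value plus 0.5. Genes reaching 1 RPKM in at least 3 libraries were tested (12920, with 169 left out), and all 10 pigment genes were among them. The tables appear to list genes whose mean reached about 1 RPKM in some strain, the lowest such mean being 0.997. The fit was limma 3.58.1 in R 4.3.3, with trended prior variance and robust estimation, strain as sole term and the 9 libraries fitted together. The tests are two-sided and Benjamini-Hochberg adjusted over all genes tested. Every 95% interval is from this fit. Where no alternative is named, p-values are also from it, and changes are on the log2(scaled RPKM + 0.5) scale. Means and SDs are of deposited RPKM. The scripts were tested on simulated data.

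The pigment genes, the lists and the markers were chosen with earlier results of these data known, so their counts are not independent evidence. Named genes were all 10 pigment genes, called genes of each list or else its 2 highest by mean, the neighbours of Mc1r and the 5 genes most like it. Pmel, Rpe65, Krt12, Sag, Mb and Tcfe3 were named after their values were seen. Of the 91 list genes, 78 were matched, some under older symbols. The GRCm38 annotation, another build than mm9, gave transcript length and GC content (98.2% of genes) and shared exon bases. Gene order and promoters came from RefSeq (GRCm38.p6). The alternatives were pseudocounts of 0.1 and 1, no filter or a filter of 2 RPKM, values as deposited, quantile normalization, a replicate block, correction for GC content with and without the block, no robust estimation, each library left out, 2 pairs of libraries left out, and fits of only the strains compared.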

Additional observations from a re-analysis of the deposited data

How the results depend on the processing

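The rise of Mc1r kept its direction and its call against C57BL/6J in every alternative run (22 each for A/J and BALB/c, 21 for the albino mean, 0.96 to 1.36). Over 870 values of the 10 genes in the alternatives, 0 calls were lost, 15 were gained and 45 uncalled values changed sign. The counts of pigment genes called moved as follows. In A/J against C57BL/6J, leaving out 1 library gave 1 to 2, and leaving out A/J 3 and C57BL/6J 3 gave 5 (Mc1r, Oca2, Mitf and Slc24a5 higher, Mlana lower). Leaving out that pair gave 3 in BALB/c against C57BL/6J, 4 for the albino mean and 3 in A/J against BALB/c (Tyrp1, Oca2 and Mc1r), where GC correction with or without the replicate block gave 1 (Tyr). Without A/J 3 and C57BL/6J 3, 39.4%, 14.7%, 10.6% and 60.2% of all genes were called in these comparisons.

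Of the 78 pathway genes, 2 to 21 were called in A/J against C57BL/6J with 1 library left out (21 without A/J 3, where 28.2% of all genes were called), 1 without A/J 1 and 2, and 27 without A/J 3 and C57BL/6J 3. In BALB/c against C57BL/6J 1 to 3 were called with 1 library left out and 9 without A/J 3 and C57BL/6J 3, and for the albino mean 5 without that pair. In A/J against BALB/c the count of 1 (Mlph) stayed at 1 with the replicate block, where the gene was Tcfe3, and became 0 with a filter of 2 RPKM, values as deposited, quantile normalization, GC correction, GC correction with the replicate block, or without A/J 1 and 2. It was 0 to 23 with 1 library left out, 3 with only the strains compared and 49 without A/J 3 and C57BL/6J 3. The cause was not tested.

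Same-numbered libraries deviated together for number 1 (correlations of 0.34, 0.54 and 0.34), and less so for number 3 (0.24, 0.47 and 0.09), but not for number 2 (-0.51, 0.01 and 0.02), and A/J 2 correlated best with BALB/c 1 and C57BL/6J 1 (0.6 each). Since not every pair was above 0.1, the numbers were not taken as a pairing. With the replicate block 1, 1, 1 and 0 pigment genes were called in A/J and BALB/c against C57BL/6J, the albino mean and A/J against BALB/c, and 406, 398, 360 and 373 of all genes, against 348, 399, 354 and 320 without it. Values as deposited shifted the median of all genes to -0.11 in A/J and -0.17 in BALB/c. The unknown depth and the 3 libraries per strain limit what can be detected.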
